A study of Cucumis melo with 9 samples.

Results

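The comparison described here sets fruit held in the cold against fruit that had not been stored, in ripe fruit of the oriental melon 'HT', a climacteric type whose ripening depends on an ethylene burst. In the chilled group (Group B), ripe fruit were kept at 4 °C for 8 d. In the unchilled group (Group C), fruit were harvested 8 d later and not stored. Both groups were grown in a greenhouse, and each had 3 replicates of pooled fruit, so that 6 of the 9 RNA-seq libraries were compared. The 3 libraries of the remaining group (Group A, 7 d of cold followed by 1 d at 22 °C) entered the statistical fit only. Cold storage and the harvest date differed together between the groups and cannot be told apart in these data. No library was made from fruit before storage, so rose and fell below mean higher or lower in chilled than in unchilled fruit. All 29980 genes of the table were considered and 15022 of them, whose FPKM averaged above 1 across all 9 libraries, were tested. The fruits of a replicate were pooled, and p-values measure the spread between pools.

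Cold slows enzyme reactions, stiffens membranes and disturbs protein folding, and plants answer with calcium and kinase signals, induced transcription factors and protective proteins such as chaperones and late embryogenesis abundant proteins. In fruit of climacteric species, low temperature also slows the ethylene-driven ripening programme, which includes softening of the cell wall, pigment synthesis and aroma formation. The functions below were followed with the gene descriptions, Gene Ontology (GO) terms and KEGG orthologs of the deposited table, ordered from gene expression and signalling to metabolism, protection and growth.

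Levels are FPKM (read counts scaled by gene length and library total) rescaled with TMM factors, which set the libraries to a common middle of the genes. A gene was called when edgeR's quasi-likelihood test gave an adjusted p (Benjamini-Hochberg over the 15022 genes) below 0.05 and the log2 fold change, chilled minus unchilled, lay beyond 1. Fold changes are given with their SE, and n is 3 libraries in each group. Libraries held 15508367 to 18828853 counted reads, and Pearson's r of log2 CPM across genes was 0.975 to 0.990 within groups and 0.757 to 0.775 between them. TMM factors were 0.764 to 0.808 in chilled and 1.11 to 1.13 in unchilled libraries. Scaling to library totals instead moved the median log2 fold change over the 15022 genes from -0.06 to -0.56, a shift of about the same size for each gene. Calls with library totals are therefore given in brackets beside each list. Bulk RNA cannot tell fewer cells of a type from less RNA per cell.

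The chilled and unchilled transcriptomes differed in a large part of all genes. Of the 15022 tested genes, 3318 were higher and 3931 lower in chilled fruit, which is 48.3% called in either direction, 22.1% higher and 26.2% lower. With library totals, 2241 genes were higher and 5688 lower, or 14.9% and 37.9%, so the share of higher calls among all calls fell from 45.8% to 28.3%. It was 47.5% with DESeq2 size factors and 35.3% with upper-quartile factors. Between TMM and library totals 6172 genes kept the same direction (2241 higher and 3931 lower) and 0 took opposite directions, so the disputed genes were 1077 called higher with TMM alone and 1757 called lower with library totals alone. Library totals lowered each fold change by about the same amount, which was less than the gap between the thresholds. Opposite calls could therefore not arise, and lower calls kept with library totals are no check of direction. Many differences were large, with 713 genes higher and 753 lower by more than 3 on the log2 scale, and 39 and 15 by more than 8. Libraries of the groups did not overlap for 7170 of the 7249 called genes, against 78.3% of all tested genes. Genes named below from lists were chosen among called genes without overlap, so their lack of overlap is not a separate result. Called genes were spread over the genome, at 45.2% to 53.2% of the tested genes of each chromosome.

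The balance of directions differed between classes of transcript level. Among genes with a mean level under 2 in both groups together, 136 of 1383 were higher in chilled fruit and 674 lower. At 20 to 100, 1312 of 4681 were higher and 569 lower with TMM, whereas with library totals the balance turned to 828 higher and 1028 lower. Of the 44 genes with a mean level of 1000 or more, 22 were higher and 9 lower, and the counts were 22 and 11 with library totals. The 1000 most abundant genes took 54.1% to 55.7% of all counted reads in chilled libraries and 47.3% to 47.8% in unchilled ones, and fewer genes passed 1 FPKM in chilled libraries (13716 to 13878) than in unchilled ones (14790 to 14933). In chilled fruit, reads were thus concentrated in fewer genes. The mean level used for these classes contains both groups, and a large change in either direction raises it.

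**Figure D1:**
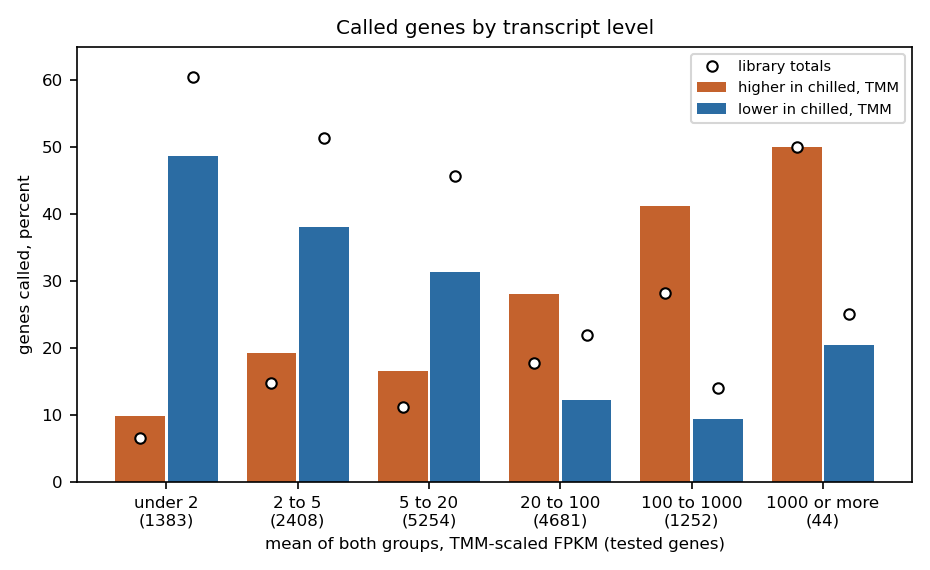
Percent of tested genes called higher (orange) or lower (blue) in chilled fruit with TMM scaling, by mean level in TMM-scaled FPKM, with open circles for library totals. Lower calls led among rare transcripts (674 against 136 under a level of 2) and higher calls led from 20 upwards, except that with library totals lower calls led at 20 to 100 (1028 against 828). The filter on FPKM averaged over all 9 libraries may act unevenly on the lowest class, and its effect by class was not tested. With no filter, 3622 of all genes fitted were higher and 5110 lower.

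The most abundant transcripts were largely exchanged. Only 38 genes stood among the 100 most abundant of both groups. Of the 100 most abundant genes of chilled fruit, 70 were called higher and 5 lower (62 and 7 with library totals), and of the 100 of unchilled fruit, 10 were higher and 42 lower (8 and 51). The SUI1-like translation factor MELO3C013163.2, a protein that in other eukaryotes helps to choose the start codon, had levels of 5691, 6181 and 5391 in chilled and 173, 186 and 150.1 in unchilled libraries (log2 fold change 5.08 ± 0.14, adjusted p = 1.48e-08). The ECPP44-like phosphoprotein MELO3C026550.2, of the dehydrin type, had 5685, 7494 and 6897 in chilled and 392, 586 and 454 in unchilled libraries (log2 fold change 3.81 ± 0.25, adjusted p = 7.75e-07). Neither gene had overlapping libraries between the groups. Elongation factor 1-alpha MELO3C020441.2, which carries aminoacyl-tRNA to the ribosome, rose from 1268, 1336 and 1480 to 4329, 4499 and 4524 in the chilled libraries (log2 fold change 1.71 ± 0.11, adjusted p = 8.5e-07). S-adenosylmethionine decarboxylase MELO3C023786.2, which feeds polyamine synthesis, rose from 829, 701 and 799 to 4039, 3153 and 2900 (log2 fold change 2.11 ± 0.14, adjusted p = 7.32e-07). A gibberellin-regulated peptide gene, MELO3C003752.2, was at 6489, 7756 and 8230 in chilled and 1550, 2539 and 2159 in unchilled libraries (log2 fold change 1.85 ± 0.19, adjusted p = 1.31e-05), with all chilled libraries above all unchilled ones. An unknown protein, MELO3C030673.2, reached 3605, 5202 and 4051 in chilled libraries from 41.5, 68.4 and 49.7 in unchilled ones (log2 fold change 6.33 ± 0.41, adjusted p = 1.65e-06). In unchilled fruit the most abundant transcripts included chlorophyll a-b binding proteins and a type 2 metallothionein, MELO3C009260.2, which binds metal ions and had 1015, 1107 and 1148 in chilled and 2587, 2599 and 2265 in unchilled libraries (log2 fold change -1.19 ± 0.11, adjusted p = 8.82e-06). The most abundant transcript of chilled fruit encoded a non-specific lipid-transfer protein (MELO3C009108.2) and was at 10834, 7656 and 10169 in chilled and 14650, 6002 and 5687 in unchilled libraries. Its libraries overlapped and it was not called, with a log2 fold change of 0.12 ± 0.36 and adjusted p = 0.774. Without unchilled replicate 1 its log2 fold change was 0.69.

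Single genes known from ripening melon flesh, picked for their role or abundance and not from a list, were expressed in both groups. Phytoene synthase and polygalacturonase were taken as the members most abundant in unchilled fruit, a choice that favours genes lower in chilled fruit. The NAC factor CmNOR (MELO3C016540.2), a regulator of ripening, was at 27.8, 25.1 and 23.8 in chilled and 917, 818 and 684 in unchilled libraries (log2 fold change -4.98 ± 0.16, adjusted p = 2.25e-08). Phytoene synthase MELO3C025102.2, which opens carotenoid synthesis, was at 9.75, 14.4 and 12 in chilled and 87.5, 122 and 105 in unchilled libraries (log2 fold change -3.12 ± 0.18, adjusted p = 4.84e-07). The polygalacturonase MELO3C027277.2, which cuts pectin, was the most abundant in unchilled fruit of the genes with that bare description. It had 166, 203 and 161 in chilled and 719, 853 and 703 in unchilled libraries (log2 fold change -2.10 ± 0.13, adjusted p = 4.61e-07). For each of these genes the highest chilled library lay below the lowest unchilled one. The alcohol acyltransferase CmAAT1 (MELO3C024771.2), which forms esters, had a log2 fold change of -2.71 ± 0.17 (adjusted p = 4.95e-07). CmACO1 (MELO3C014437.2), the last enzyme of ethylene synthesis, was at 466, 593 and 575 in chilled and 1057, 1245 and 1423 in unchilled libraries (log2 fold change -1.19 ± 0.40, adjusted p = 0.0249). Its call was lost without chilled replicate 1, 2 or 3 or unchilled replicate 2 or 3, where log2 fold changes were -1.25 to -1.08 and adjusted p values 0.0506 to 0.0760. CmACS1 (MELO3C021182.2), the enzyme that makes the precursor ACC, went the other way at 499, 397 and 262 in chilled and 7.18, 17.6 and 15.9 in unchilled libraries (log2 fold change 4.83 ± 0.39, adjusted p = 6.33e-06).

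Lists of genes that mark other tissues moved unevenly. In the seed storage and oil body list, 5 of 13 genes were higher and 2 lower (4 and 2), the summed level was 350 to 482 in chilled and 136 to 159 in unchilled libraries, and the 11S globulin MELO3C012886.2, a seed storage protein, had a mean of 87.4 against 26.9. Of the 33 genes of that list in the table, 20 were too low to be tested, and no tested gene lacked counts in a group. Phloem proteins had 4 of 9 genes higher and 4 lower (3 and 4), with summed levels of 232 to 311 and 295 to 547. Cutin and wax enzymes of the epidermis had 3 of 19 genes higher and 4 lower (2 and 9), with 455 to 769 in chilled and 1050 to 3187 in unchilled libraries. Within the unchilled group replicate 1 stood apart on this list, at 3187 against 1050 and 1139. The ECERIFERUM 1-like gene MELO3C006254.2, of wax alkane synthesis, was at 118, 50.9 and 55 in chilled and 1204, 351 and 362 in unchilled libraries (log2 fold change -3.10 ± 0.64, adjusted p = 0.00203) and at -2.28 on the log2 scale without unchilled replicate 1. The part that tissue proportions in the pooled samples had in the results below was not tested.

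Most lists of basic gene expression had a smaller share called than all tested genes, and most families of transcription factors a larger one. Across 85 lists with at least 5 tested genes, 52 had a larger and 33 a smaller share than 48.3%. In 84 of them genes were called in both directions, the exception being the 14-3-3 proteins. With TMM 36 lists held more higher calls, 43 more lower calls and 6 equal numbers. With library totals the numbers were 8, 75 and 2, so 26 lists turned from more higher to more lower calls. The 43 lists with more lower calls also had them with library totals, which lowered all fold changes and so could hardly turn them. Lower calls led among rare transcripts, and no list was compared with other genes of like level.

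**Figure D2:**
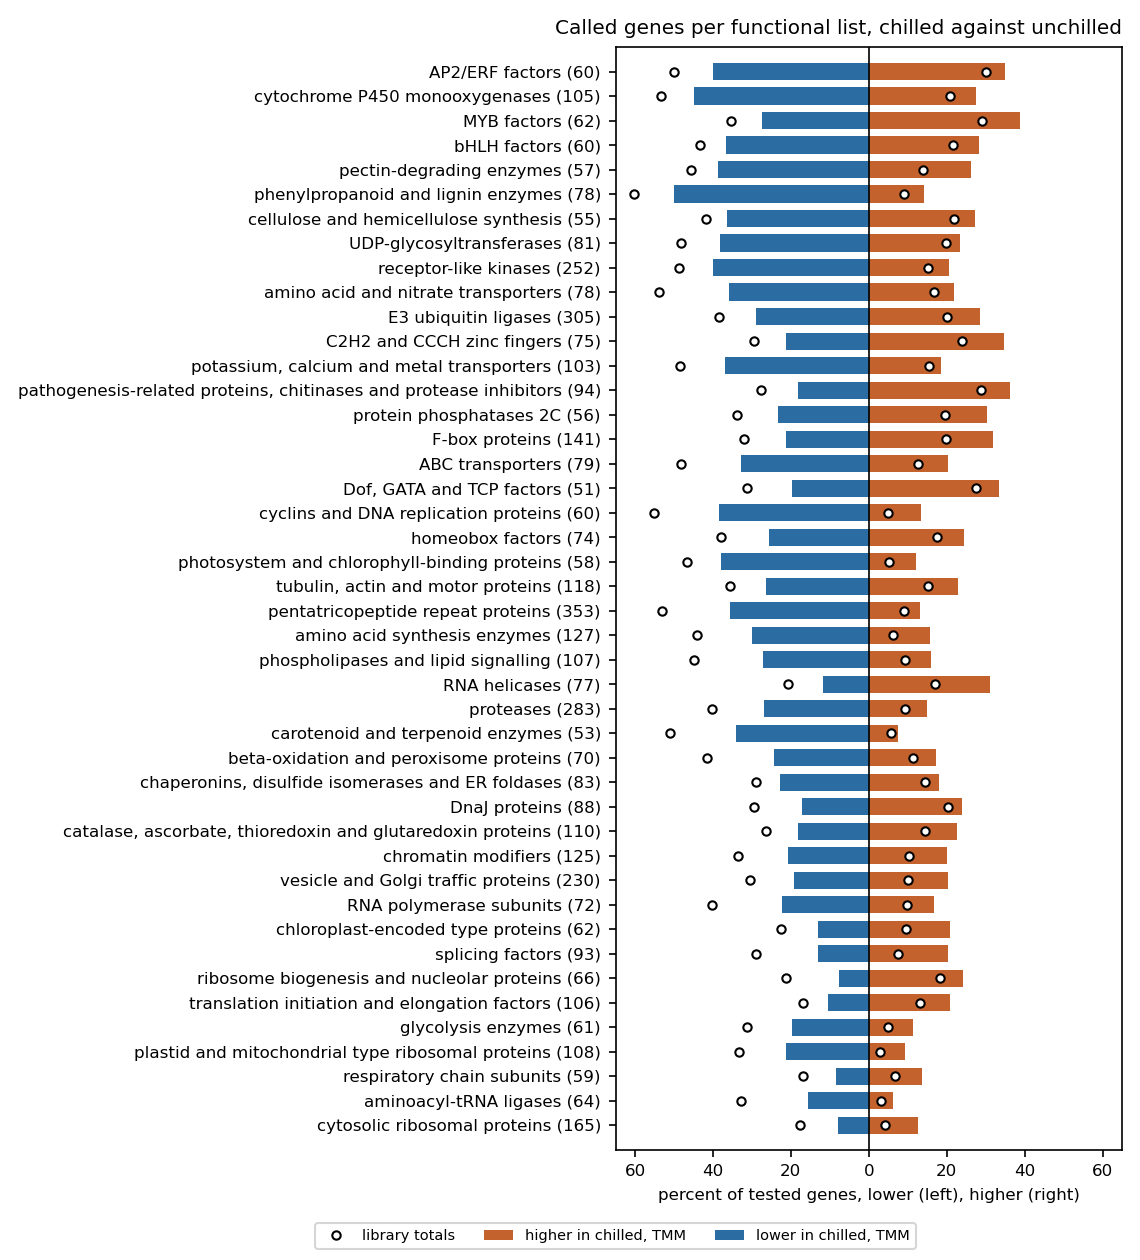
Bars give the percent of tested genes called lower (left) or higher (right) in chilled fruit with TMM for each functional list with 50 or more tested genes (number in brackets), and open circles the same with library totals. AP2/ERF factors had the largest share called (75.0%) and cytosolic ribosomal proteins the smallest (20.6%), where 21 higher and 13 lower calls turned to 7 and 29 with library totals.

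Few ribosome and translation genes were called, although single ones changed strongly. Of the cytosolic ribosomal proteins, 21 of 165 genes were higher and 13 lower (7 and 29), so that 20.6% were called, the median was 0.36 and the balance turned with the scaling. The 40S ribosomal protein SA-like gene MELO3C017553.2 was among those that fell, at 2.25, 2.81 and 2.58 in chilled and 15.4, 16.9 and 19.8 in unchilled libraries (log2 fold change -2.77 ± 0.16, adjusted p = 4.07e-07). The 60S ribosomal protein L35a gene MELO3C029565.2 was at 40.5, 39.1 and 36.2 in chilled and 0.209, 0.671 and 0.399 in unchilled libraries (log2 fold change 6.44 ± 0.33, adjusted p = 1.87e-07), but it shares 555 bases with a neighbouring gene and the sources used here do not give the strand setting of the counting. Ribosomal proteins of plastid and mitochondrial type had 10 of 108 genes higher and 23 lower (3 and 36). The mitochondrial 39S protein L46 (MELO3C015876.2) was among the lower ones, at 0.722, 1.2 and 1.11 in chilled and 9.73, 10.7 and 11.3 in unchilled libraries (log2 fold change -3.38 ± 0.19, adjusted p = 3.62e-07). Translation initiation and elongation factors had 22 of 106 genes higher and 11 lower (14 and 18) with a balance that turned with library totals. Their summed level was 17049 to 17123 in chilled and 8386 to 9089 in unchilled libraries. An initiation factor 3 subunit, MELO3C007959.2, rose from 1.87, 0.687 and 0.893 to 50.2, 36.9 and 28.3 (log2 fold change 5.06 ± 0.35, adjusted p = 1.3e-06). Only 21.9% of the aminoacyl-tRNA ligases, which charge tRNAs, were called, with 4 of 64 genes higher and 10 lower (2 and 21). Lysine-tRNA ligase MELO3C022021.2 was the furthest down of them, at 2.16, 2.73 and 2.02 in chilled and 28.3, 28.8 and 23.2 in unchilled libraries (log2 fold change -3.54 ± 0.20, adjusted p = 3.2e-07).

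RNA processing leaned upwards with TMM and lost that lean with library totals. RNA helicases, which unwind RNA, had 24 of 77 genes higher and 9 lower (13 and 16) and a median of 0.51. The mitochondrial helicase SUPV3L1 (MELO3C006514.2) was at 73, 67.8 and 68 in chilled and 7.9, 7.56 and 7.95 in unchilled libraries (log2 fold change 3.15 ± 0.11, adjusted p = 3.05e-08). Splicing factors had 19 of 93 genes higher and 12 lower (7 and 27), the SC35-like splicing factor MELO3C009595.2 standing at 140.5, 148 and 143 in chilled and 22, 21 and 16.1 in unchilled libraries (log2 fold change 2.87 ± 0.13, adjusted p = 8.26e-08). Among spliceosome genes defined by KEGG ortholog, 32 of 114 genes were higher and 11 lower (20 and 20). Nucleolin MELO3C021807.2, a protein of ribosome assembly, was at 144, 121 and 138 in chilled and 28.3, 16.7 and 23.1 in unchilled libraries (log2 fold change 2.56 ± 0.23, adjusted p = 9.87e-06), and its list of ribosome biogenesis proteins had 16 of 66 genes higher and 5 lower (12 and 14). The cold shock protein 2-like gene MELO3C003032.2, of a family of RNA chaperones, was at 12.8, 16.1 and 18.4 in chilled and 1.73, 1.39 and 1.65 in unchilled libraries (log2 fold change 3.31 ± 0.30, adjusted p = 7.02e-06).

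Pentatricopeptide repeat proteins, which edit and process RNA in plastids and mitochondria, had more lower than higher calls. This was the largest list, with 46 of 353 genes higher and 126 lower (32 and 187) and a median of -0.58. Its share called, 48.7%, was close to that of all genes, with 35.7% lower beside 26.2%. Lower calls were also common among weakly expressed genes of any function, with 918 of 2408 at levels of 2 to 5 and 1644 of 5254 at 5 to 20. The part of low levels in the lower calls of this list was not tested. Its summed level was 2684 to 2821 in chilled and 2579 to 2664 in unchilled libraries. The gene MELO3C011746.2 was at 0, 1.11 and 0.787 in chilled and 11, 12.6 and 12.8 in unchilled libraries (log2 fold change -4.21 ± 0.49, adjusted p = 3.83e-05), and MELO3C032264.2 went up, at 13.3, 9.49 and 9 in chilled and 0.749, 0.657 and 1.15 in unchilled libraries (log2 fold change 3.63 ± 0.27, adjusted p = 1.62e-06). Plastid-type RNA polymerase beta subunits were found in both directions, MELO3C013634.2 at 102, 93.4 and 88.4 in chilled and 19.7, 18.5 and 20.8 in unchilled libraries (log2 fold change 2.26 ± 0.087, adjusted p = 4.47e-08) and MELO3C012983.2 at 1.59, 1.36 and 1.48 in chilled and 11.4, 9.85 and 9.99 in unchilled libraries (log2 fold change -2.82 ± 0.14, adjusted p = 1.35e-07).

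DNA, histone and cell cycle lists had more lower than higher calls. Histones had 5 of 30 genes higher and 13 lower (2 and 16) and a median of -0.75. Histone H4 MELO3C019996.2 was at 0.222, 0.542 and 0.179 in chilled and 14.8, 11.5 and 11.6 in unchilled libraries (log2 fold change -5.32 ± 0.31, adjusted p = 3.84e-07) and at -5.92 without chilled replicate 2, while one histone H3 gene, MELO3C011045.2, rose from 75.9, 79.1 and 83.9 to 277, 231 and 249 (log2 fold change 1.66 ± 0.088, adjusted p = 2.3e-07). Cyclins and DNA replication proteins had 8 of 60 genes higher and 23 lower (3 and 33). The D-type cyclin MELO3C007628.2, which drives entry into the cell cycle, was at 0.984, 0.743 and 1.41 in chilled and 17.3, 19.1 and 18.5 in unchilled libraries (log2 fold change -4.11 ± 0.23, adjusted p = 2.78e-07). By GO term, DNA repair had 18 of 101 genes higher and 46 lower (9 and 61) and DNA replication 3 of 57 genes higher and 19 lower (2 and 38), whereas the cell cycle term was nearly balanced with TMM and had 12 of 42 genes higher and 14 lower (8 and 18). Summed levels of the DNA repair genes were nevertheless higher in chilled libraries, at 1650 to 1665 against 1271 to 1287. Chromatin modifiers were divided, with 25 of 125 genes higher and 26 lower (13 and 42), and the histone deacetylase MELO3C016865.2 rose from 33.9, 32.7 and 31.3 to 226, 261 and 269 (log2 fold change 2.95 ± 0.10, adjusted p = 3.02e-08).

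Protein folding genes included some of the strongest increases in abundant transcripts. A small heat shock protein of class I, MELO3C003195.2 (chr8:33069818-33070249), a chaperone that holds unfolding proteins, was at 2652, 1660 and 1722 in chilled and 19.7, 21.1 and 26.4 in unchilled libraries (log2 fold change 6.49 ± 0.38, adjusted p = 9e-07). The disulfide isomerase MELO3C022139.2 (chr9:813672-816059), which forms disulfide bonds in the endoplasmic reticulum, was at 518, 586 and 537 in chilled and 12.1, 18.2 and 15.4 in unchilled libraries (log2 fold change 5.16 ± 0.20, adjusted p = 4.59e-08). The co-chaperone ERDJ3A (MELO3C009146.2) of the same compartment was at 76.5, 60.5 and 70.6 in chilled and 5.74, 4.35 and 3.82 in unchilled libraries (log2 fold change 3.90 ± 0.17, adjusted p = 8.72e-08). The groups of these 3 genes did not overlap, which was a condition of their choice. Coordinates are those of the table, which does not name its build, and the methods of the study name DHL92 version 3.5.1. The transcription factor bZIP60 (MELO3C017064.2), known in Arabidopsis as a regulator of the response to unfolded proteins, had 422, 381 and 414 in chilled and 118, 111 and 101 in unchilled libraries (log2 fold change 1.88 ± 0.14, adjusted p = 1.73e-06). Small heat shock and HSP70/90 proteins had 17 of 40 genes higher and 10 lower (15 and 12), and a mitochondrial small heat shock protein, MELO3C017883.2, fell, at 1.02, 1.75 and 1.45 in chilled and 17.3, 28.6 and 19.3 in unchilled libraries (log2 fold change -3.94 ± 0.27, adjusted p = 1.05e-06). DnaJ proteins had 21 of 88 genes higher and 15 lower (18 and 26), and chaperonins, disulfide isomerases and endoplasmic reticulum foldases had 15 of 83 genes higher and 19 lower (12 and 24).

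Of the protein degradation machinery, few proteasome genes were called and the ubiquitin ligases split. Proteasome subunits had 12 of 46 genes higher and 1 lower (8 and 5), so that 28.3% were called and 26.1% higher, beside 48.3% and 22.1% of all tested genes. Defined by KEGG ortholog, the 20S core that cuts proteins had 4 of 17 genes higher and 0 lower (3 and 0) and the 19S particle that feeds it 8 of 26 genes higher and 0 lower (5 and 2). A 26S protease regulatory subunit, MELO3C004218.2, was at 77.2, 70.1 and 69.9 in chilled and 10.5, 10.4 and 10.1 in unchilled libraries (log2 fold change 2.81 ± 0.091, adjusted p = 2.11e-08). E3 ubiquitin ligases, which mark proteins for the proteasome, had 87 of 305 genes higher and 88 lower (61 and 117), and F-box proteins, which choose the substrates, 45 of 141 genes higher and 30 lower (28 and 45). The F-box gene MELO3C008578.2 (chr5:13640229-13642527) was among the most changed, at 753, 507 and 511 in chilled and 7.69, 11.7 and 7.95 in unchilled libraries (log2 fold change 6.02 ± 0.33, adjusted p = 4.68e-07), and the E3 ligase RMA1H1-like MELO3C002598.2 went down, at 6.01, 2.89 and 2.82 in chilled and 91.6, 134 and 131 in unchilled libraries (log2 fold change -4.94 ± 0.31, adjusted p = 1e-06). The autophagy gene ATG18f (MELO3C018126.2), which acts at the forming autophagosome, was at 326, 349 and 349.8 in chilled and 34.6, 35.1 and 31.6 in unchilled libraries (log2 fold change 3.34 ± 0.088, adjusted p = 1.34e-08), in a list with 7 of 19 genes higher and 4 lower (4 and 4). Proteases had 42 of 283 genes higher and 76 lower (26 and 114), so that 26.9% were lower beside 26.2% of all tested genes, and their summed level was 14421 to 14620 in chilled and 10647 to 11045 in unchilled libraries. In that list the subtilisin-like protease MELO3C020810.2 was at 0.694, 1.11 and 0.611 in chilled and 20.5, 23.2 and 15.4 in unchilled libraries (log2 fold change -4.62 ± 0.24, adjusted p = 1.88e-07).

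**Figure D3:**
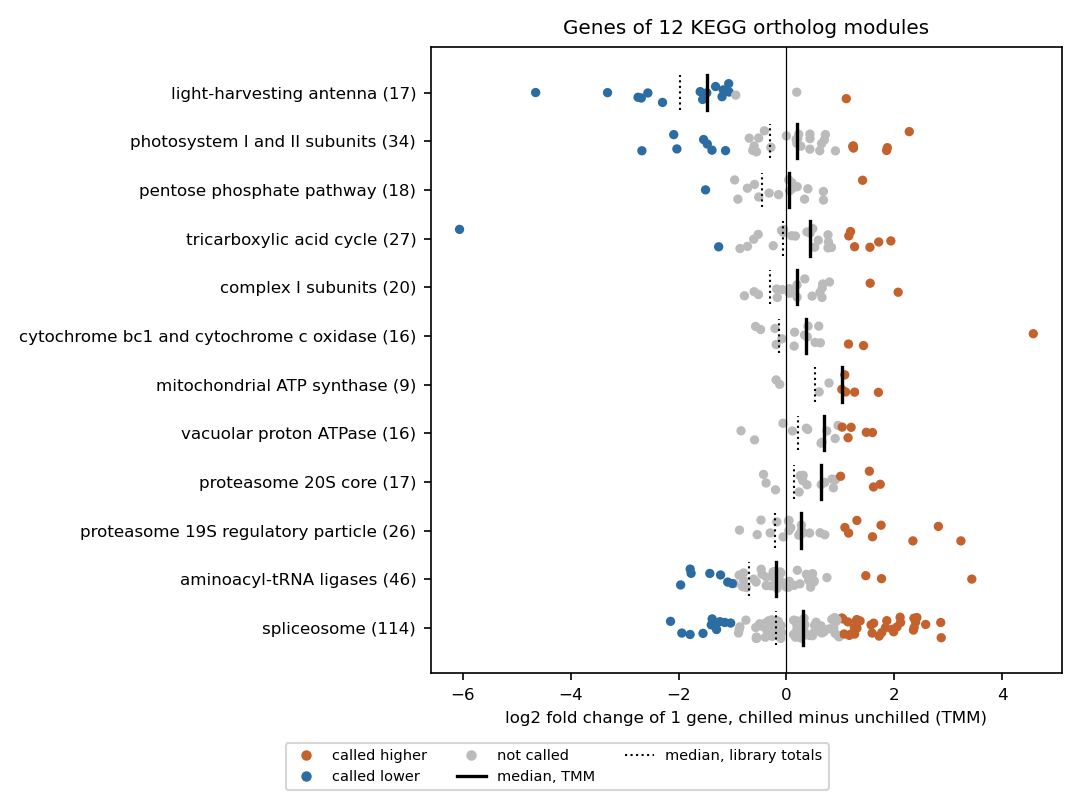
Each point is the log2 fold change (TMM) of a gene of 12 KEGG modules, orange when called higher, blue when called lower and grey when not called, with solid bars for TMM medians and dotted bars for medians with library totals. In the antenna 14 of 17 genes were called lower, whereas the 20S core had 4 of 17 called higher and 0 lower, and 5 of 9 higher calls of the mitochondrial ATP synthase became 0 with library totals.

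Heat stress transcription factors had more higher than lower calls with both scalings. Of the heat stress factors, which switch on chaperone genes, 9 of 17 genes were higher and 3 lower (7 and 6), and the median was 1.38. Heat stress factor A-3 (MELO3C027079.2, chr0:2394434-2398143) was at 228, 211 and 217 in chilled and 4.62, 5.56 and 4.68 in unchilled libraries (log2 fold change 5.46 ± 0.12, adjusted p = 1.13e-08). Heat stress factor B-2b-like MELO3C006891.2 was at 13.2, 18.1 and 16.1 in chilled and 36.2, 27.8 and 37.5 in unchilled libraries (log2 fold change -1.10 ± 0.15, adjusted p = 9.66e-05). Its call was lost without chilled replicate 1, where the log2 fold change was -0.98.

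Other transcription factor families were called often and in both directions. AP2/ERF factors, the family of ethylene response factors and of the cold-induced CBF proteins, had 21 of 60 genes higher and 24 lower (18 and 30), or 75.0% called. ERF113-like MELO3C008331.2 (chr3:3829132-3831312) was at 142, 108 and 98.2 in chilled and 0.258, 0.414 and 0.523 in unchilled libraries (log2 fold change 8.16 ± 0.32, adjusted p = 6.82e-08). NAC factors had 16 of 41 genes higher and 9 lower (12 and 13) and MYB factors 24 of 62 genes higher and 17 lower (18 and 22), and in both families the balance turned with library totals. The NAC gene MELO3C012114.2 was at 86.4, 67.8 and 78.6 in chilled and 2.23, 0.832 and 1.44 in unchilled libraries (log2 fold change 5.70 ± 0.40, adjusted p = 2.22e-06), opposite in direction to CmNOR. The MYB gene MELO3C021555.2 was at 59.2, 57.6 and 52.1 in chilled and 2.03, 1.86 and 1.86 in unchilled libraries (log2 fold change 4.87 ± 0.19, adjusted p = 4.59e-08). WRKY factors, best known from defence, had 9 of 42 genes higher and 16 lower (6 and 19). MELO3C006037.2 was the WRKY gene furthest down, at 1.06, 0.786 and 0.447 in chilled and 127, 116 and 189 in unchilled libraries (log2 fold change -7.58 ± 1.22, adjusted p = 0.000456), and MELO3C007409.2 rose, at 245, 106 and 97.8 in chilled and 30.3, 13 and 22.4 in unchilled libraries (log2 fold change 2.77 ± 0.45, adjusted p = 0.000475). The zinc finger gene MELO3C025844.2 of the CCCH type was at 636, 413 and 373 in chilled and 41, 27.8 and 41.2 in unchilled libraries (log2 fold change 3.69 ± 0.24, adjusted p = 8.73e-07). C2H2 and CCCH zinc fingers had 26 of 75 genes higher and 16 lower (18 and 22), and the MADS-box factors, which set organ identity and ripening, had 4 of 23 genes higher and 3 lower (3 and 3), or 30.4% called.

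Some regulators had no counts in any library of a group. Taking 3 counts per group as the floor, the GRAS factor MELO3C014056.2 was at least 928-fold higher in chilled fruit, with 29.3, 17.9 and 21.7 there. The bHLH factor MELO3C018792.2, described as bHLH117, was at least 380-fold higher, with 19.1, 22 and 25.5. A heavy metal-associated isoprenylated protein, MELO3C005315.2, was at least 192-fold higher. In the other direction the homeobox leucine-zipper gene MELO3C031501.2 had no count in chilled libraries and 29.1, 19.4 and 22.5 in unchilled ones, at least 72.7-fold lower. Fatty acyl-CoA reductase MELO3C001088.2, of wax synthesis, was at least 23.5-fold lower. These bounds cover counting error only. Of all genes, 1092 had counts in chilled but none in unchilled libraries, 118 of them with a mean level of at least 1, and 1112 the reverse, 59 of them with a mean of at least 1.

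**Figure D4:**
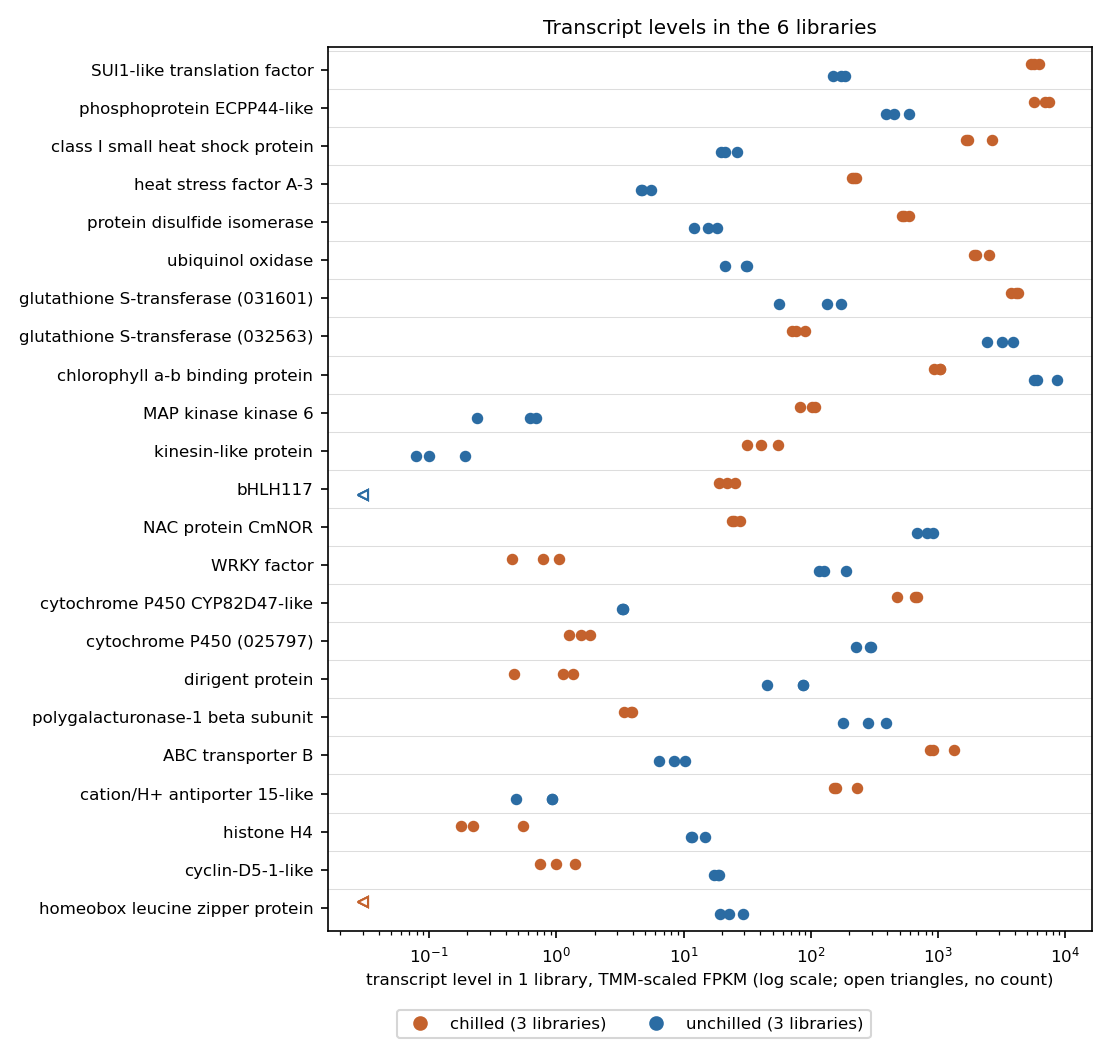
Points are the TMM-scaled FPKM of single libraries on a log axis for genes named in the text, orange for the 3 chilled and blue for the 3 unchilled libraries, and open triangles at the left edge stand for libraries with no count. No gene shown has overlapping groups, which was a condition of choosing genes from lists. Heat stress factor A-3 lies at 211 to 228 against 4.62 to 5.56.

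Among signalling genes, kinases changed in both directions. Receptor-like kinases, which sense signals at the cell surface, had 52 of 252 genes higher and 101 lower (38 and 123), so that 40.1% were called lower, while their summed level was 3425 to 4102 in chilled and 3303 to 3738 in unchilled libraries, overlapping between groups. The cysteine-rich receptor-like kinase MELO3C002489.2 was at 1.53, 1.45 and 1.22 in chilled and 25.6, 15.4 and 21.8 in unchilled libraries (log2 fold change -3.91 ± 0.20, adjusted p = 1.89e-07). Calmodulins and calmodulin-like proteins, which carry calcium signals, had 12 of 41 genes higher and 11 lower (8 and 15), and the calcium-dependent kinase MELO3C002215.2 was at 125, 130.4 and 128 in chilled and 19.9, 16.8 and 20 in unchilled libraries (log2 fold change 2.75 ± 0.087, adjusted p = 2.06e-08). The CBL-interacting kinase MELO3C035201.2 fell, at 3.72, 3.61 and 3.3 in chilled and 77.5, 125 and 129 in unchilled libraries (log2 fold change -4.96 ± 0.25, adjusted p = 2.13e-07). MAP kinase kinase 6 (MELO3C004594.2, chr5:28838037-28841515) was nearly absent from unchilled fruit, at 102, 108 and 81.8 in chilled and 0.24, 0.615 and 0.686 in unchilled libraries (log2 fold change 7.53 ± 0.28, adjusted p = 4.14e-08). Mitogen-activated protein kinases as a list had 10 of 33 genes higher and 10 lower (6 and 11). All called 14-3-3 proteins, adaptors that bind phosphorylated partners, were higher, with 5 of 10 genes higher and 0 lower (2 and 0), and MELO3C011041.2 was at 144, 113 and 113 in chilled and 35.6, 35.4 and 44.2 in unchilled libraries (log2 fold change 1.68 ± 0.13, adjusted p = 2.73e-06).

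Hormone genes did not move as blocks. Genes of ethylene synthesis and signalling had 9 of 33 genes higher and 13 lower (7 and 14), or 66.7% called. Abscisic acid synthesis and receptor genes had 5 of 24 genes higher and 8 lower (5 and 9). By ortholog, abscisic acid signalling had 9 of 31 genes higher and 8 lower (8 and 12). Its genes of ortholog K14496 were more often higher, as MELO3C016864.2 with means of 158 in chilled and 0.15 in unchilled fruit, and only MELO3C026930.2 was lower. Those of K14497 were more often lower, and only MELO3C013082.2 was higher. By ortholog, jasmonate signalling had 3 of 11 genes higher and 3 lower (3 and 4). The list of jasmonate genes by description had 5 of 34 genes higher and 10 lower (4 and 17) and a median of -0.81. A lipoxygenase of that list, MELO3C024348.2, which oxidizes polyunsaturated fatty acids, was at 7.41, 5.08 and 4 in chilled and 114, 116 and 100.2 in unchilled libraries (log2 fold change -4.33 ± 0.44, adjusted p = 2.43e-05). Gibberellin, cytokinin and brassinosteroid genes by description had 17 of 46 genes higher and 8 lower (15 and 9). By ortholog the balance was another, with 3 of 8 higher and 2 lower (2 and 3) for gibberellin signalling. Cytokinin signalling had 7 of 22 and 8 (6 and 9), and brassinosteroid signalling 5 of 13 and 2 (0 and 4). Gibberellin 2-beta-dioxygenase 8 (MELO3C032832.2), which inactivates gibberellin, was at 3.06, 0.855 and 2.02 in chilled and 158, 67.8 and 79.4 in unchilled libraries (log2 fold change -5.68 ± 0.51, adjusted p = 1.13e-05). Auxin response factors, AUX/IAA and SAUR proteins had 16 of 48 genes higher and 11 lower (8 and 18). SAUR36 (MELO3C022337.2) was at 45.9, 23.6 and 24.9 in chilled and 209.9, 235 and 172 in unchilled libraries (log2 fold change -2.71 ± 0.25, adjusted p = 1.25e-05) and the auxin-responsive gene MELO3C003844.2 at 12.7, 9.89 and 17.2 in chilled and 0.445, 0.463 and 0.213 in unchilled libraries (log2 fold change 5.14 ± 0.30, adjusted p = 4.36e-07). Light signalling and clock proteins had 7 of 24 genes higher and 7 lower (4 and 10), the clock regulator APRR5 (MELO3C005921.2) standing at 215, 229.5 and 224 in chilled and 45.6, 48 and 41.8 in unchilled libraries (log2 fold change 2.30 ± 0.12, adjusted p = 1.95e-07).

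Light-harvesting genes were lower and other photosynthesis genes were not uniformly so. Of the antenna proteins defined by KEGG ortholog, which bind chlorophyll and collect light, 1 of 17 genes was higher and 14 lower (0 and 15), and the summed level was 4773 to 5765 in chilled against 16020 to 24018 in unchilled libraries. The chlorophyll a-b binding gene MELO3C012912.2 was at 1032, 1044 and 937 in chilled and 8648, 5949 and 5645 in unchilled libraries (log2 fold change -2.75 ± 0.20, adjusted p = 1.75e-06) and MELO3C002727.2 at 214, 323 and 244 in chilled and 2934, 2640 and 2187 in unchilled libraries (log2 fold change -3.31 ± 0.18, adjusted p = 2.57e-07). Photosystem I and II subunits by ortholog had 6 of 34 genes higher and 7 lower (3 and 12). Their summed level was nevertheless lower, at 3549 to 4226 in chilled against 7284 to 8632 in unchilled libraries. The most abundant of the 6 higher genes, MELO3C000428.2, had a mean of only 37.2 in chilled and 15.9 in unchilled fruit. It shares its ortholog, K02703, with the higher genes MELO3C025247.2, MELO3C027714.2 and MELO3C034841.2, so the 6 genes do not stand for 6 different subunits. A list of chloroplast-encoded type proteins, kept as a sign of RNA quality, had 13 of 62 genes higher and 8 lower (6 and 14). Its summed level was 1324 to 1355 in chilled and 1016 to 1073 in unchilled libraries. A PsbP family gene of photosystem II, MELO3C005006.2, rose from 13.5, 16.6 and 13.7 to 58.4, 77.8 and 77.6 (log2 fold change 2.29 ± 0.14, adjusted p = 5.74e-07).

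Several modules of central energy metabolism had few called genes. Complex I subunits by ortholog had 2 of 20 genes higher and 0 lower (2 and 3) and the pentose phosphate pathway 1 of 18 genes higher and 1 lower (0 and 6). Of the tricarboxylic acid cycle enzymes, 6 of 34 genes were higher and 2 lower (3 and 6), and a regulatory subunit of isocitrate dehydrogenase, MELO3C007968.2, was at 237, 214 and 219 in chilled and 69.2, 61.4 and 74.5 in unchilled libraries (log2 fold change 1.71 ± 0.11, adjusted p = 6.72e-07). The mitochondrial ATP synthase had 5 of 9 genes higher and 0 lower (0 and 0), so that its calls rested on the scaling. The vacuolar proton ATPase had 5 of 16 genes higher and 0 lower (1 and 2). Glycolysis enzymes chosen by description had 7 of 61 genes higher and 12 lower (3 and 19), whereas the glycolysis module by ortholog had 11 of 51 genes higher and 9 lower (5 and 12), so that the balance with TMM depended on how members were chosen. One phosphofructokinase, MELO3C032910.2, of the committed step, was at 15.3, 13.2 and 13.3 in chilled and 116, 247 and 246 in unchilled libraries (log2 fold change -3.87 ± 0.31, adjusted p = 6.08e-06). Of the same ortholog, MELO3C015428.2, with means of 24.9 in chilled and 152 in unchilled fruit, was also lower. So were MELO3C013009.2, MELO3C017646.2 and MELO3C032442.2, in each case with both scalings. Only MELO3C018966.2 was not called, with means of 51.8 and 54.8. Pyrophosphate-dependent phosphofructokinases by ortholog went both ways. MELO3C017063.2 was higher, with means of 349 in chilled and 51.1 in unchilled fruit, and MELO3C021720.2 lower, with 17.5 and 36.1. Alternative respiration, which bypasses the proton-pumping complexes, was called more often, with 3 of 14 genes higher and 7 lower (2 and 7). Its ubiquinol oxidase MELO3C027020.2 (chr7:19769960-19772114), the alternative oxidase, was at 2492, 1971 and 1903 in chilled and 30.9, 21 and 31.8 in unchilled libraries (log2 fold change 6.25 ± 0.26, adjusted p = 6.82e-08), although more genes of the list were lower than higher.

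**Figure D5:**
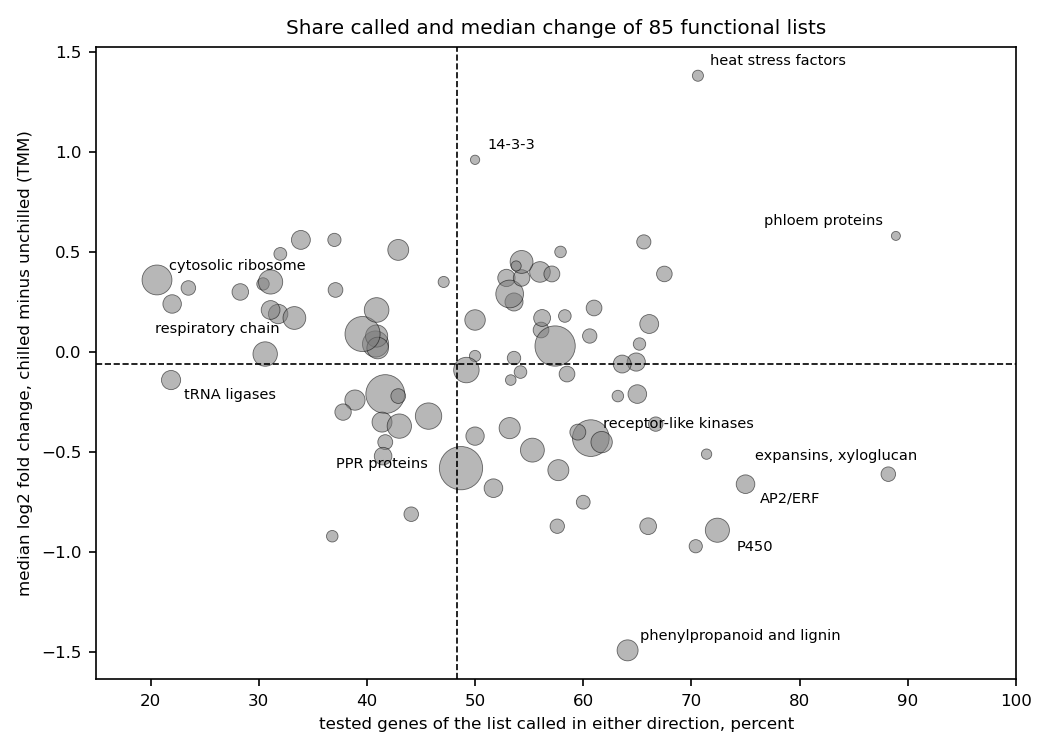
Each circle is a functional list with at least 5 tested genes, with area growing with the number of genes, placed by the percent of genes called (horizontal axis) and the median log2 fold change with TMM (vertical axis), and dashed lines mark all tested genes (48.3% and -0.06). The cytosolic ribosome, tRNA ligase and respiratory chain lists lie at 20.6% to 22.0% called and the expansin and xyloglucan list at 88.2%, and with library totals all medians lie about 0.50 lower, so positive medians under that value turn negative.

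Sugar and nitrogen genes changed one by one. Sugar transporters had 10 of 47 genes higher and 21 lower (9 and 24) and a median of -0.87. Their summed level nevertheless went the other way, at 1493 to 2851 in chilled and 723 to 1024 in unchilled libraries. The sugar transporter MELO3C007325.2 was at 361, 199 and 217 in chilled and 3.09, 4.13 and 5.93 in unchilled libraries (log2 fold change 5.88 ± 0.38, adjusted p = 1.61e-06). A pair of beta-amylases, which release maltose from starch, moved in opposite directions. MELO3C021362.2 was at 294, 375 and 295 in chilled and 42, 47.2 and 50.1 in unchilled libraries (log2 fold change 2.79 ± 0.15, adjusted p = 2.02e-07) and MELO3C016213.2 at 4.83, 4.49 and 4.36 in chilled and 26.7, 26.2 and 27 in unchilled libraries (log2 fold change -2.55 ± 0.084, adjusted p = 2.33e-08). Sucrose, raffinose and trehalose enzymes had 12 of 32 genes higher and 9 lower (9 and 12), with an insoluble beta-fructofuranosidase, MELO3C024383.2, an invertase of the cell wall that splits sucrose, at 63.2, 97.1 and 61.4 in chilled and 7.14, 2.75 and 7.28 in unchilled libraries (log2 fold change 3.69 ± 0.64, adjusted p = 0.000736). A trehalose-6-phosphate synthase, MELO3C013838.2, went down, at 4.12, 5.26 and 4.43 in chilled and 37.8, 49.3 and 41.2 in unchilled libraries (log2 fold change -3.22 ± 0.13, adjusted p = 6.04e-08). Amino acid synthesis enzymes had 20 of 127 genes higher and 38 lower (8 and 56). The branched-chain aminotransferase MELO3C010776.2, which interconverts branched-chain amino acids and their keto acids, was at 12.2, 13.3 and 11.8 in chilled and 147, 389 and 451 in unchilled libraries (log2 fold change -4.73 ± 0.43, adjusted p = 1.17e-05), and glutamate dehydrogenase MELO3C017628.2 at 96.8, 48.2 and 44.8 in chilled and 5.44, 3.67 and 5.1 in unchilled libraries (log2 fold change 3.74 ± 0.32, adjusted p = 7.76e-06).

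A cell wall list had the largest share called among the lists of 20 or more genes. Expansins and xyloglucan enzymes, which loosen and remodel the wall, had 14 of 34 genes higher and 16 lower (10 and 17), or 88.2% called. A xyloglucan galactosyltransferase, MELO3C005404.2, rose, at 74.4, 105 and 93.6 in chilled and 9.99, 8.61 and 9.07 in unchilled libraries (log2 fold change 3.30 ± 0.16, adjusted p = 1.29e-07). Pectin-degrading enzymes had 15 of 57 genes higher and 22 lower (8 and 26). The non-catalytic beta subunit of polygalacturonase-1, MELO3C010662.2 (chr3:31642017-31644933), was at 3.37, 3.83 and 3.96 in chilled and 178, 387 and 283 in unchilled libraries (log2 fold change -6.24 ± 0.29, adjusted p = 1.64e-07), and a pectinesterase, MELO3C006208.2, rose with a wide spread, at 18, 87.9 and 55.5 in chilled and 5, 6.04 and 9.21 in unchilled libraries (log2 fold change 2.99 ± 0.59, adjusted p = 0.00155). Cellulose synthase MELO3C023979.2 was at 168, 268 and 254 in chilled and 5.93, 7.89 and 7.43 in unchilled libraries (log2 fold change 5.02 ± 0.27, adjusted p = 3.21e-07), in a list of cellulose and hemicellulose genes with 15 of 55 genes higher and 20 lower (12 and 23). Class III peroxidases and laccases, which polymerize lignin, had 6 of 27 genes higher and 13 lower (4 and 14). By GO term, genes of the extracellular region had 22 of 98 genes higher and 42 lower (16 and 48), with summed levels of 1861 to 2013 in chilled and 3507 to 3839 in unchilled libraries.

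Lists of secondary metabolism had more lower than higher calls and held strong changes both ways. Phenylpropanoid and lignin enzymes had 11 of 78 genes higher and 39 lower (7 and 47), and their median of -1.49 was the lowest of the 85 lists. Of them, cinnamyl alcohol dehydrogenase MELO3C019548.2 was at 1.47, 0.989 and 1.06 in chilled and 55.3, 43.5 and 69.2 in unchilled libraries (log2 fold change -5.58 ± 0.25, adjusted p = 1.11e-07). The dirigent protein MELO3C014666.2, of a family that guides lignan coupling, was at 0.461, 1.35 and 1.12 in chilled and 45.5, 86.6 and 87.5 in unchilled libraries (log2 fold change -6.20 ± 0.58, adjusted p = 1.47e-05). Cytochrome P450 monooxygenases had 29 of 105 genes higher and 47 lower (22 and 56), although their summed level was 4224 to 5591 in chilled and 3935 to 3986 in unchilled libraries. The CYP82D47-like gene MELO3C026495.2 (chr4:7224486-7226956) was at 656, 478 and 677 in chilled and 3.34, 3.27 and 3.37 in unchilled libraries (log2 fold change 7.50 ± 0.35, adjusted p = 1.92e-07), and on the same chromosome MELO3C025797.2 (chr4:18636188-18638410) was at 1.85, 1.56 and 1.25 in chilled and 228, 294 and 296 in unchilled libraries (log2 fold change -7.46 ± 0.19, adjusted p = 1.25e-08). UDP-glycosyltransferases had 19 of 81 genes higher and 31 lower (16 and 39) and likewise a higher summed level in chilled libraries, at 2308 to 3417 against 1853 to 2096. Among those that fell was the 7-deoxyloganetin glucosyltransferase-like gene MELO3C018664.2, at 1.45, 1.59 and 2.27 in chilled and 66.2, 79.7 and 62.8 in unchilled libraries (log2 fold change -5.28 ± 0.18, adjusted p = 2.65e-08). Carotenoid and terpenoid enzymes had 4 of 53 genes higher and 18 lower (3 and 27). Genes with the GO term iron ion binding, which P450s and dioxygenases share, had 42 of 163 genes higher and 74 lower (35 and 86).

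Protective proteins also changed as single genes within mixed lists. Glutathione S-transferases, which attach glutathione to reactive compounds, had 14 of 42 genes higher and 10 lower (13 and 14). The most abundant member in chilled fruit, MELO3C031601.2, was at 4126, 3767 and 4235 in chilled and 174, 56.2 and 134 in unchilled libraries (log2 fold change 5.06 ± 0.45, adjusted p = 1.07e-05). The most abundant in unchilled fruit, MELO3C032563.2, was at 90.2, 70.8 and 76.8 in chilled and 3868, 2409 and 3160 in unchilled libraries (log2 fold change -5.31 ± 0.23, adjusted p = 8.43e-08), so that different members dominated in each group. Late embryogenesis, dehydrin and cold-regulated proteins had 12 of 41 genes higher and 12 lower (10 and 17), and the D-29-like protein MELO3C016388.2 was at 145, 70.1 and 59.7 in chilled and 0.391, 0.538 and 0.186 in unchilled libraries (log2 fold change 7.84 ± 0.59, adjusted p = 2.41e-06). Universal stress and A20/AN1 proteins had 8 of 27 genes higher and 2 lower (5 and 6). The AN1 zinc finger stress-associated protein MELO3C009923.2 was at 479.6, 371 and 334 in chilled and 11.1, 11.3 and 12.2 in unchilled libraries (log2 fold change 5.09 ± 0.15, adjusted p = 1.85e-08). Genes with the GO term response to cold had 6 of 21 genes higher and 4 lower (3 and 8), which is 47.6% called. Catalase, ascorbate, thioredoxin and glutaredoxin proteins had 25 of 110 genes higher and 20 lower (16 and 29), and glutaredoxin MELO3C009775.2 was at 32.6, 36.1 and 41.5 in chilled and 5.1, 3.39 and 3.53 in unchilled libraries (log2 fold change 3.20 ± 0.19, adjusted p = 3.85e-07).

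Defence lists differed in their balance of calls with TMM, while their summed levels overlapped between groups. NBS-LRR resistance proteins, intracellular immune receptors, had 4 of 33 genes higher and 15 lower (2 and 20), and the GO term ADP binding that they share had 4 of 48 genes higher and 26 lower (2 and 33). The summed level of the NBS-LRR list was 240 to 301 in chilled and 228 to 250 in unchilled libraries. The TMV resistance protein N-like genes MELO3C004289.2 and MELO3C004311.2 moved in opposite directions, the former at 2.31, 2.41 and 1.58 in chilled and 34.5, 28 and 38 in unchilled libraries (log2 fold change -4.0 ± 0.21, adjusted p = 2.18e-07) and the latter at 145, 123 and 106 in chilled and 21.3, 26.5 and 28.1 in unchilled libraries (log2 fold change 2.30 ± 0.17, adjusted p = 1.71e-06). Pathogenesis-related proteins, chitinases and protease inhibitors had 34 of 94 genes higher and 17 lower (27 and 26). Their summed level was 8539 to 10554 in chilled and 6882 to 9844 in unchilled libraries. A cysteine proteinase inhibitor, MELO3C018579.2, fell, at 2.02, 4.41 and 3.74 in chilled and 29.8, 54.5 and 35 in unchilled libraries (log2 fold change -3.54 ± 0.46, adjusted p = 0.0001), while the PR-4-like gene MELO3C004385.2 was at 704, 1858 and 2229 in chilled and 2434, 1444 and 2886 in unchilled libraries, overlapped between groups and was not called.

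Transporter families were called in both directions. ABC transporters, which move many substrates with ATP, had 16 of 79 genes higher and 26 lower (10 and 38). The ABC transporter B gene MELO3C008741.2 (chr5:18271033-18277161) was at 1344, 916 and 871 in chilled and 8.38, 6.43 and 10.2 in unchilled libraries (log2 fold change 6.96 ± 0.35, adjusted p = 2.03e-07). Potassium, calcium and metal transporters had 19 of 103 genes higher and 38 lower (16 and 50), and the cation/H+ antiporter 15-like gene MELO3C009849.2 (chr4:28769337-28772178) was at 230.1, 159 and 151 in chilled and 0.918, 0.922 and 0.48 in unchilled libraries (log2 fold change 7.86 ± 0.33, adjusted p = 1.28e-07). Multidrug and toxic compound extrusion (MATE) proteins had 8 of 28 genes higher and 7 lower (5 and 11). The gene MELO3C012291.2 of that list was at 387, 386 and 407 in chilled and 64, 74.3 and 79.5 in unchilled libraries (log2 fold change 2.44 ± 0.14, adjusted p = 3.22e-07). Aquaporins, the water channels, had 6 of 17 genes higher and 2 lower (6 and 4). The aquaporin PIP2 gene MELO3C013347.2 fell, at 24.2, 37.7 and 23.8 in chilled and 40.4, 91.3 and 107 in unchilled libraries (log2 fold change -1.48 ± 0.39, adjusted p = 0.00798).

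Vesicle traffic and cytoskeleton genes were called in both directions. Vesicle and Golgi traffic proteins had 47 of 230 genes higher and 44 lower (23 and 70), or 39.6% called, and syntaxin-31 MELO3C025172.2, known in Arabidopsis from vesicle fusion at the Golgi, was at 1.85, 2.09 and 1.73 in chilled and 16.1, 16.3 and 16.2 in unchilled libraries (log2 fold change -3.10 ± 0.12, adjusted p = 4.13e-08). Tubulin, actin and motor proteins had 27 of 118 genes higher and 31 lower (18 and 42), or 49.2% called against 48.3% of all tested genes. The kinesin-like gene MELO3C009259.2 (chr4:33302640-33306549), a motor protein, was at 54.8, 40.2 and 31.7 in chilled and 0.192, 0.101 and 0.0784 in unchilled libraries (log2 fold change 8.39 ± 0.39, adjusted p = 1.35e-07), and actin-related protein 8 MELO3C014127.2 at 0.987, 1 and 0.797 in chilled and 14.3, 14.1 and 13.5 in unchilled libraries (log2 fold change -3.91 ± 0.13, adjusted p = 2.24e-08). Both were chosen among genes whose groups did not overlap.

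Genes described as unknown proteins were called more often than other genes. Of 785 tested genes described as unknown proteins, 278 were higher and 171 lower (225 and 242), or 57.2% called, against 47.8% of genes with another description, and the balance turned with library totals. Their median was 0.35, beside -0.06 for all tested genes. Genes without a KEGG ortholog were called at 52.1% and those with one at 43.1%. The unknown protein MELO3C008689.2 had no count in unchilled libraries and 37, 29 and 28.1 in chilled ones, at least 81.3-fold higher, and the unknown protein MELO3C030151.2 had none in chilled libraries and 26.8, 68.4 and 55.1 in unchilled ones, at least 153-fold lower. No test compared the annotated and unannotated classes.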

How the data were processed

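The authors deposited one table of read counts and FPKM per gene, with gene descriptions, GO terms, KEGG orthologs and coordinates. Per the submitters' processing notes, reads were trimmed with cutadapt 1.15 and aligned with HISAT2 2.0.5, whereas the study's methods give other versions of both tools. Per those methods the genome was DHL92, reads were counted per gene, and the deposited counts carry no normalization, while the deposited FPKM are counts divided by gene length and library total. The sources used here give no strand setting, so overlapping genes are uncertain. The table holds no columns of fold changes used here.

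Counts were tested with edgeR 4.0.16 under R 4.3.3 (TMM factors, robust glmQLFit, glmQLFTest), with all 9 libraries in one fit and the contrast chilled minus unchilled. The filter kept genes whose FPKM averaged above 1, and calls needed an adjusted p (Benjamini-Hochberg) below 0.05 and a log2 fold change beyond 1 in either direction. The SE is the size of the log2 fold change over the root of its quasi-likelihood F. The code was tested on simulated data in which few genes were changed, equally up and down. There edgeR recovered 83% of genes changed by 1.5 on the log2 scale and 97% of those changed by 3, with 3 false calls. With so few changes, that simulation could not test the choice of scaling.

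Lists are words in the descriptions, with false matches taken out by description after the table was seen, and no test was run on them. Named genes are the highest and lowest called, non-overlapping gene of each list with a mean level of at least 10, the 15 highest and 15 lowest described genes with at least 50, the 10 most abundant genes of each group, the 5 highest genes with no count in a group, and ripening markers. Phytoene synthase and polygalacturonase were the members most abundant in unchilled fruit, and the 11S globulin and MELO3C031601.2 were taken for their abundance or role. The members and lists were chosen with earlier results of these data known. Alternatives were other scalings, DESeq2 1.42.0, other filters and thresholds, a fit of 2 groups, a block for the replicate number, and each library left out. Folds against a group with no counts use a floor of 3 counts over that group.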

Additional observations from a re-analysis of the deposited data

How the results depend on the processing

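The counts of 3318 higher and 3931 lower genes became 3441 and 3801 with DESeq2 size factors, 2663 and 4890 with upper-quartile factors, 2241 and 5688 with library totals, 3452 and 3825 with the DESeq2 test, 3622 and 5110 with no filter, 3642 and 4327 with edgeR's filter and 3173 and 3652 at an adjusted p below 0.01. Without the fold-change threshold 5442 genes were higher and 5884 lower. Leaving out each library gave 3246 to 3299 higher and 3868 to 3917 lower genes. In none of these fits was a gene called opposite to its main call. The replicate numbers were not used as pairs in the main fit. Correlations of the deviations of libraries were 0.109, 0.149 and -0.0533 with the same number and -0.163 to 0.0826 with different numbers. With 3 libraries a group these values cannot decide whether the samples were paired. A replicate block gave 3302 higher and 3925 lower genes, of which 3283 and 3874 were also called without it, and changed no call among 208 named genes. Library totals moved 71 of 170 list counts by more than 1.5 times and DESeq2 size factors moved 1. Among named genes, directions turned for 2 that were not called. MELO3C009108.2 (0.12 on the log2 scale) was at -0.38 with library totals, -0.15 with upper-quartile factors, -0.014 with no filter and between -0.11 (without unchilled replicate 3) and 0.69 (without unchilled replicate 1) with single libraries left out, including -0.09 without unchilled replicate 2. MELO3C018882.2 (0.45) was at -0.036 with library totals. The excess share of reads in the most abundant genes of chilled fruit was 7.07 percentage points for 1000 genes, 1.93 for 100 and 0.2 for 10, where the groups overlapped. Precision is limited by 3 pools a group, with which an exact permutation test of a single gene could not pass the threshold, and by few reads for rare transcripts.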
